A study of Mus musculus with 4 samples.

Results

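The integrin and laminin genes were followed in sorted palatal mesenchyme of mouse embryos that lack the forkhead transcription factor Foxf2. Members were taken by symbol, as every gene listed as an integrin α subunit (*Itga*), an integrin β subunit (*Itgb*) or a laminin α, β or γ chain (*Lama*, *Lamb*, *Lamc*). This gave 37 of 22096 genes, 26 integrins and 11 laminins, with 44 transcript entries between them. RNA-seq values were available for 4 embryos at embryonic day 13.5, all of mixed strain background and all carrying 1 *Osr2RFP* allele, a knock-in reporter that marks *Osr2*-expressing cells. The mutant group was 2 *Foxf2*-/-*Osr2RFP*/+ embryos. The control group was 1 *Osr2RFP*/+ embryo, called *Foxf2*+/+ here, and 1 *Foxf2*+/-*Osr2RFP*/+ littermate, so neither control genotype had a replicate. The *Foxf2* null allele was present in every tissue of the mutants, and only RFP-positive cells from dissected palatal shelves were sequenced, as a separate library for each embryo. In such bulk samples, fewer cells of a type and less RNA per cell cannot be told apart.

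Integrins are receptors that pair an α with a β subunit across the cell membrane and connect the matrix outside the cell to the actin cytoskeleton. Most α subunits of mesenchyme pair with the subunit encoded by *Itgb1*, while that encoded by *Itgav* also pairs with several other β subunits. Laminins are trimers of an α, a β and a γ chain that form the scaffold of basement membranes, including the one between palatal epithelium and mesenchyme, and some integrins are their receptors.

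The unit is FPKM, sequenced fragments scaled to transcript length and to the size of the library, so levels can be compared between genes. Entries of at least 200 bases were summed by symbol, and 11154 genes with a mean FPKM of at least 1 over the 4 embryos were tested, among them 17 members. These were 11 integrins and 6 laminins, whereas the other 20 members were at most at 0.679 FPKM in any embryo. The depth in reads is unknown. The median over entries of coverage per unit of FPKM put the deepest library at 1.19 times the depth of the shallowest. *Foxf2* itself was at 85.4 FPKM in *Foxf2*+/+, 45.1 in *Foxf2*+/-, and 1.41 and 2.28 in the mutants. All 10 palatal mesenchyme markers reached 1 FPKM and summed to between 924 and 1155 FPKM per embryo, with *Vim* the highest by its mean. Endothelial and skeletal muscle markers summed to at most 1.87 and 1.35 FPKM, and none of either list reached 1 FPKM. Epithelial markers summed to between 7.72 and 9.92 FPKM, and leukocyte markers to between 8.57 and 13.8. Erythroid markers varied most, from 297 FPKM in the *Foxf2*+/+ embryo to 4375 in the second mutant.

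In comparison with the controls, no integrin or laminin gene passed the test in the mutants. limma, at a Benjamini-Hochberg adjusted p under 0.05 together with a fold above 1.5, called 0 of the 17 members tested, against 0.0628% of all genes tested (0.0538% higher and 0.00897% lower in the mutants). Adjusted p-values of the members ran from 0.308 to 0.959, and 2 members, *Lama1* and *Lamc1*, had an unadjusted p under 0.05, a mark that 13% of all genes passed. None of the 17 differed by more than 1.5-fold from both controls, as 1.4% of all genes did (0.717% higher and 0.681% lower). Both mutants lay on the same side of both controls for 8 of the 17 members, near the 45.7% of all genes. The median log2 difference, mutant minus control, was -0.04 over the members and -0.08 over all genes, and the median absolute difference was 0.12 and 0.13. The 95% interval from limma stayed within 1.5-fold in both directions for 11 of the 17 members and within 2-fold for 16, and the former held for 75.3% of all genes. An exact two-sided permutation test of a single gene, 2 embryos against 2, cannot give a p below 0.333.

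**Figure D1:**
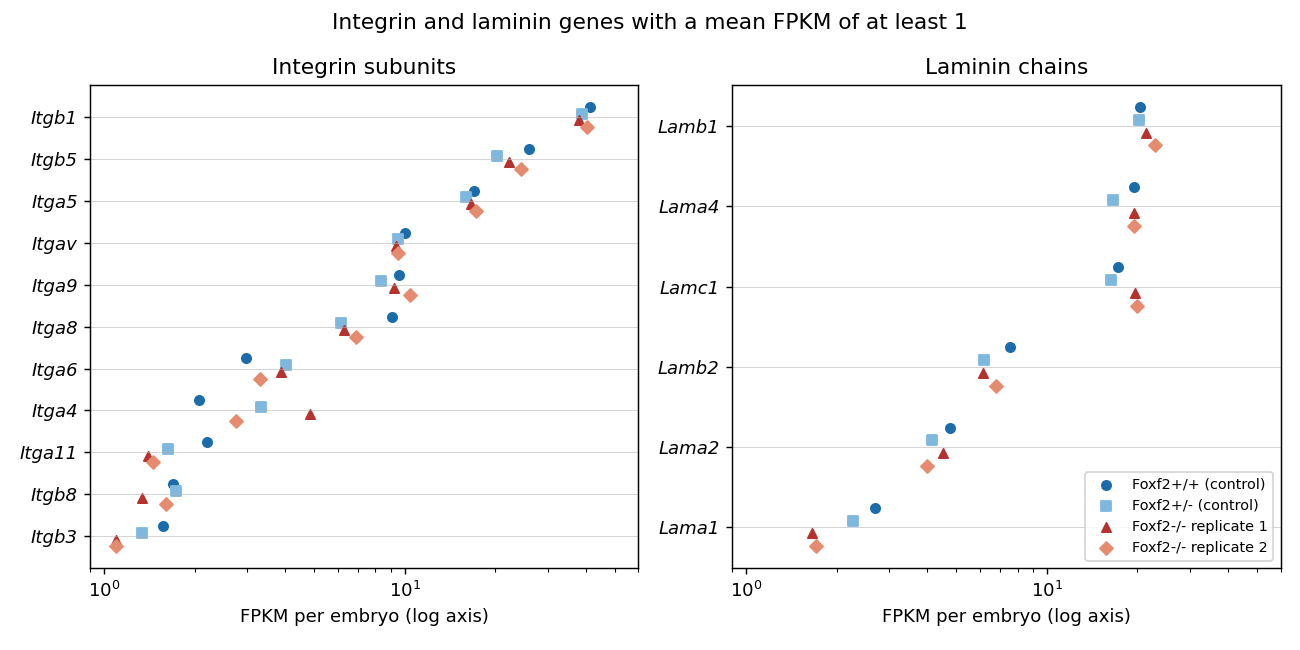
FPKM of the 17 members tested in each of the 4 embryos on a log axis, with 1 row per gene, integrin subunits on the left and laminin chains on the right. *Itgb1* sits highest, at 38.0 to 41.5 FPKM, *Itga4* has the widest spread, and the mutants lie to the left of both controls for *Lama1*, *Itga11* and *Itgb3*.

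The integrin β subunits were led by *Itgb1*, the common partner of the matrix-binding α subunits, at 41.5 FPKM in *Foxf2*+/+, 38.9 in *Foxf2*+/-, and 38.0 and 40.5 in the mutants. The groups overlapped, and the mean was 40.2 ± 1.87 in the controls and 39.2 ± 1.81 in the mutants (SD, n = 2 each). It exceeded 92.1% of the genes tested. The limma interval of its log2 difference ran from -0.24 to 0.17, that is between 0.846 and 1.13 times the control level (adjusted p = 0.90, limma). *Itgb5*, a partner of *Itgav*, was at 25.9 and 20.3 FPKM in the controls, against 22.3 and 24.3 in the mutants, so both mutants fell between the controls. *Itgb8*, another partner of *Itgav* and known for activating latent Tgf-beta, was at 1.70 and 1.73 FPKM in the controls, against 1.34 and 1.61 in the mutants. *Itgb3*, the vitronectin receptor subunit, was at 1.57 and 1.34 in the controls and 1.09 in both mutants. The mutants were below both controls for *Itgb8* and *Itgb3*, by log2 differences of -0.21 and -0.38, neither with a low adjusted p in limma (0.685 and 0.503). Their intervals, from -0.66 to 0.25 and from -0.88 to 0.13, both extend past a 1.5-fold decrease. *Itgb1* made up 58.2 to 62.0% of the summed FPKM of all 8 β subunits across the 4 embryos.

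*Itgb5* is listed as 2 entries, whose values are given separately. On chromosome 16 of mm9 the gene runs from 33829751 to 33949424, on the plus strand, and both entries span it with 15 exons. Their lengths of 3282 and 3253 bases match 2 annotated forms that differ only at the end of exon 14, where the longer form continues for 29 bases. Both exon ends are followed by GT, the usual start of an intron. The extension is coding and is not a multiple of the codon length, so the forms differ in the end of the cytoplasmic tail that follows the membrane-spanning segment, with annotated coding lengths of 2397 bases in the longer form and 2448 in the shorter. The exon is shown because these 29 bases, in capitals, are the whole annotated difference between the entries. It lies at chr16:33947801-33947967, and the capitals start at 33947939.
*Itgb5* exon 14: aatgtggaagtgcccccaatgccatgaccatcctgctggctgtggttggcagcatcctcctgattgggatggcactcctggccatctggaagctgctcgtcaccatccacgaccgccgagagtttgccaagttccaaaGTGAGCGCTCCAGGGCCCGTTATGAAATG
The entry with the extension was at 23.7 FPKM in *Foxf2*+/+, 17.8 in *Foxf2*+/-, and 18.6 and 21.2 in the mutants. The entry without it was at 2.28 and 2.51 FPKM in the controls, against 3.69 and 3.16 in the mutants. Only the entry without the extension had both mutants above both controls, by a log2 difference of 0.49, and its share of *Itgb5* was 8.80% and 12.4% in the controls and 16.5% and 12.99% in the mutants. The division of FPKM between entries that share nearly all bases is an estimate by the authors' program, and single entries were not tested.

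**Figure D2:**
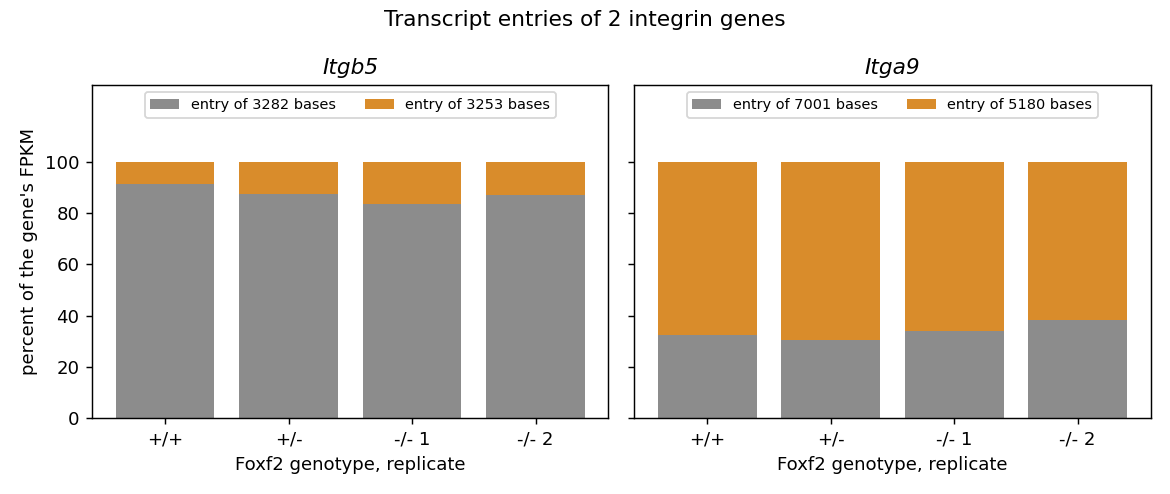
Share of a gene's FPKM, in percent, assigned to each of the 2 entries of *Itgb5* and of *Itga9*, by embryo. The 3253-base *Itgb5* entry, without the extension of exon 14, takes 8.80% in the *Foxf2*+/+ embryo and 12.4 to 16.5% in the others, and the 7001-base *Itga9* entry takes 30.3 to 38.5%.

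Among the α subunits, those that recognise the RGD motif of fibronectin and related ligands carried most of the FPKM. *Itga5*, the fibronectin receptor subunit, was at 17.0 and 15.97 FPKM in the controls, against 16.6 and 17.3 in the mutants, and *Itgav* was at 10.0 and 9.51 in the controls, against 9.36 and 9.50 in the mutants. For *Itgav* both mutants were below both controls, the second mutant only just, and this order was lost when the libraries were rescaled by median ratios. *Itga8*, whose ligand is nephronectin, was at 9.06 FPKM in the *Foxf2*+/+ embryo against 6.15, 6.30 and 6.91 in the other embryos, so that embryo stood apart and the groups overlapped. The 4 RGD-binding α subunits summed to 34.0 ± 3.18 FPKM in the controls and 33.0 ± 0.979 in the mutants (SD, n = 2 each). *Itga9*, a receptor of tenascin-C among others, was at 9.56 and 8.35 in the controls, against 9.23 and 10.5 in the mutants. Its 7001-base entry was at 3.09 and 2.53 FPKM in the controls, against 3.14 and 4.02 in the mutants, and its 5180-base entry, which starts further downstream, was at 6.47 and 5.81 against 6.09 and 6.43. *Itga4*, which binds fibronectin and Vcam1, varied most, with 2.07 and 3.32 FPKM in the controls, against 4.85 and 2.74 in the mutants. Its log2 difference of 0.46 had the widest interval of the members, from -0.24 to 1.16 (adjusted p = 0.555, limma), and was 0.79 relative to *Foxf2*+/+ and 0.13 relative to *Foxf2*+/-.

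The collagen-binding and laminin-binding α subunits were low. *Itga11*, a receptor of fibrillar collagen in mesenchymal cells (chromosome 9, 62525662 to 62631786), was at 2.20 FPKM in *Foxf2*+/+, 1.63 in *Foxf2*+/-, and 1.40 and 1.45 in the mutants. The mutants lay below both controls, with a log2 difference of -0.38 (standard error 0.21, adjusted p = 0.482, limma) that was -0.59 relative to *Foxf2*+/+ and -0.18 relative to *Foxf2*+/-. *Itga2*, another collagen receptor subunit, was below the level for testing, at 0.653 and 0.567 FPKM in the controls, against 0.406 and 0.285 in the mutants. *Itga1* and *Itga10* were between 0.393 and 0.574 FPKM in all embryos. The 4 collagen-binding subunits together were at 3.94 and 3.06 FPKM in the controls, against 2.71 and 2.68 in the mutants. *Itga6*, the main laminin receptor subunit here, was at 2.97 and 4.03 FPKM in the controls, against 3.88 and 3.30 in the mutants, both mutants falling between the controls. *Itga3*, also a laminin receptor subunit, was at 0.387 and 0.484 in the controls, against 0.679 and 0.634 in the mutants. *Itga7*, the muscle laminin receptor subunit, was at 0.0496 FPKM or less. All 18 α subunits summed to 53.5 ± 3.06 FPKM in the controls and 54.2 ± 0.0989 in the mutants (SD, n = 2 each).

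**Figure D3:**
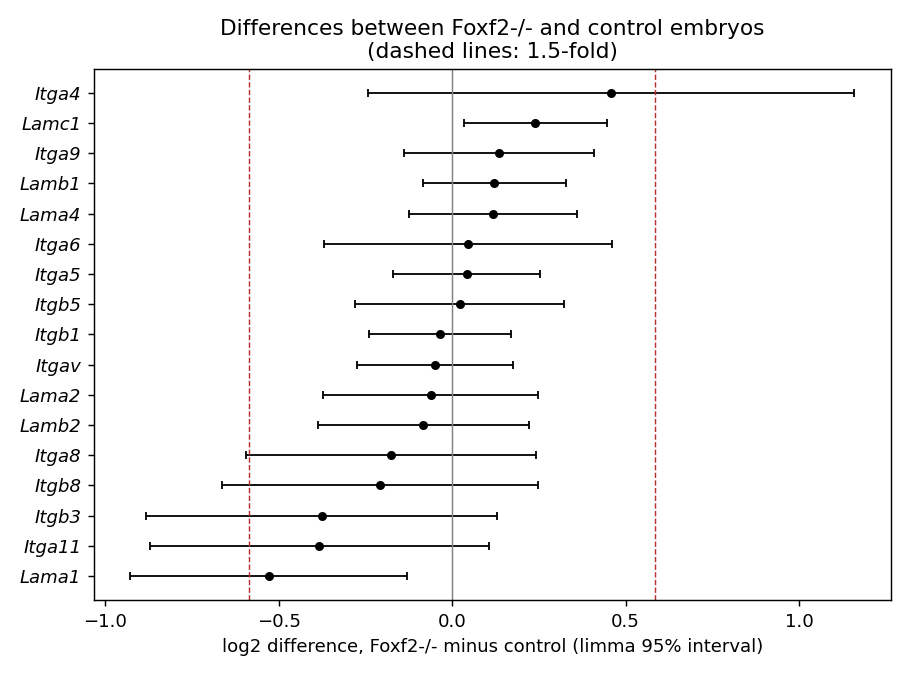
log2 difference between the mutant and control means of the 17 members tested, on the log2(FPKM + 0.1) scale, with the 95% interval from limma as bars and dashed lines at 1.5-fold. The points run from -0.53 for *Lama1* to 0.46 for *Itga4*, and the intervals of *Lama1* and *Lamc1* alone leave out 0, before any adjustment over the 11154 genes.

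The laminin α chains were led by *Lama4*, the chain of vessel and mesenchymal basement membranes, at 19.5 and 16.7 FPKM in the controls, against 19.6 and 19.5 in the mutants. *Lama2*, the chain of muscle and nerve basement membranes, was at 4.76 and 4.16 in the controls, against 4.52 and 4.01 in the mutants. *Lama1*, an early embryonic chain on chromosome 17 (68046605 to 68171985), was at 2.68 FPKM in *Foxf2*+/+, 2.28 in *Foxf2*+/-, and 1.66 and 1.71 in the mutants. Both mutants lay below both controls, and the mean was 2.48 ± 0.288 in the controls and 1.68 ± 0.035 in the mutants (SD, n = 2 each). The log2 difference of -0.53 (standard error 0.17, interval -0.93 to -0.13) was the largest of the members in size and had an adjusted p of 0.308 from limma. Relative to *Foxf2*+/+ it was -0.64, past 1.5-fold, and relative to *Foxf2*+/- it was -0.41, short of it. The 7 skeletal muscle markers summed to 1.247 and 1.35 FPKM in the controls, against 0.764 and 0.841 in the mutants. *Actc1* was at 0.506 and 0.609 FPKM in the controls, against 0.350 and 0.155 in the mutants. *Acta1* was also lower in both mutants. The groups overlapped for *Des*, *Chrna1*, *Myf5* and *Myod1*, and *Myog* was at 0 in all embryos. The part of muscle cells in the *Lama1* value was not tested. *Lama4* exceeded *Lama1* 7.26-fold and 7.32-fold in the controls, and 11.8-fold and 11.4-fold in the mutants.

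Of the β and γ chains, *Lamb1* and *Lamc1*, which most laminin trimers of mesenchyme contain, were at levels near that of *Lama4*. *Lamb1* (chromosome 12, 31950159 to 32014504) had levels of 20.4 and 20.3 FPKM in the controls, against 21.4 and 22.9 in the mutants. *Lamc1* (chromosome 1, 155066052 to 155179916) was at 17.3 and 16.4 in the controls, against 19.8 and 20.03 in the mutants. For both genes the mutants were above both controls. The *Lamc1* mean was 16.8 ± 0.609 in the controls and 19.9 ± 0.195 in the mutants (SD, n = 2 each). Its log2 difference was 0.24 (standard error 0.09, interval 0.03 to 0.45, adjusted p = 0.338, limma), at most 1.36 times the control level. That of *Lamb1* was 0.12 (interval -0.08 to 0.33, adjusted p = 0.593, limma). *Lamb2*, the alternative β chain of mature basement membranes, was at 7.54 and 6.18 FPKM in the controls, against 6.13 and 6.77 in the mutants, and overlapped. The 8 endothelial markers summed to 0.480 and 0.936 FPKM in the controls, against 1.02 and 1.87 in the mutants. *Emcn* was at 0 and 0.346 FPKM in the controls, against 0.450 and 0.812 in the mutants. *Cdh5* and *Kdr* were also higher in both mutants. The groups overlapped for *Pecam1*, *Tek*, *Esam* and *Tie1*, and *Cldn5* was at 0 in all embryos. The 7 smooth muscle and pericyte markers summed to 14.0 and 11.8 FPKM in the controls, against 12.4 and 14.9 in the mutants, so these sums overlapped. The part of endothelial cells, smooth muscle cells or pericytes in the values of *Lama4*, *Lamb1* and *Lamc1* was not tested. *Lamc1* made up 97.9 to 98.8% of the γ chain FPKM. The γ chains summed to 17.1 ± 0.540 FPKM in the controls and 20.3 ± 0.202 in the mutants, the β chains to 27.2 ± 0.998 and 28.7 ± 1.47, and the α chains to 25.4 ± 2.61 and 26.02 ± 0.513 (SD, n = 2 each). The ratio of γ to α chain FPKM was 0.642 and 0.711 in the controls, against 0.765 and 0.798 in the mutants. That of β to α chain FPKM was 1.03 and 1.13 in the controls, against 1.05 and 1.16 in the mutants, and overlapped. Ratios were not tested.

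**Figure D4:**
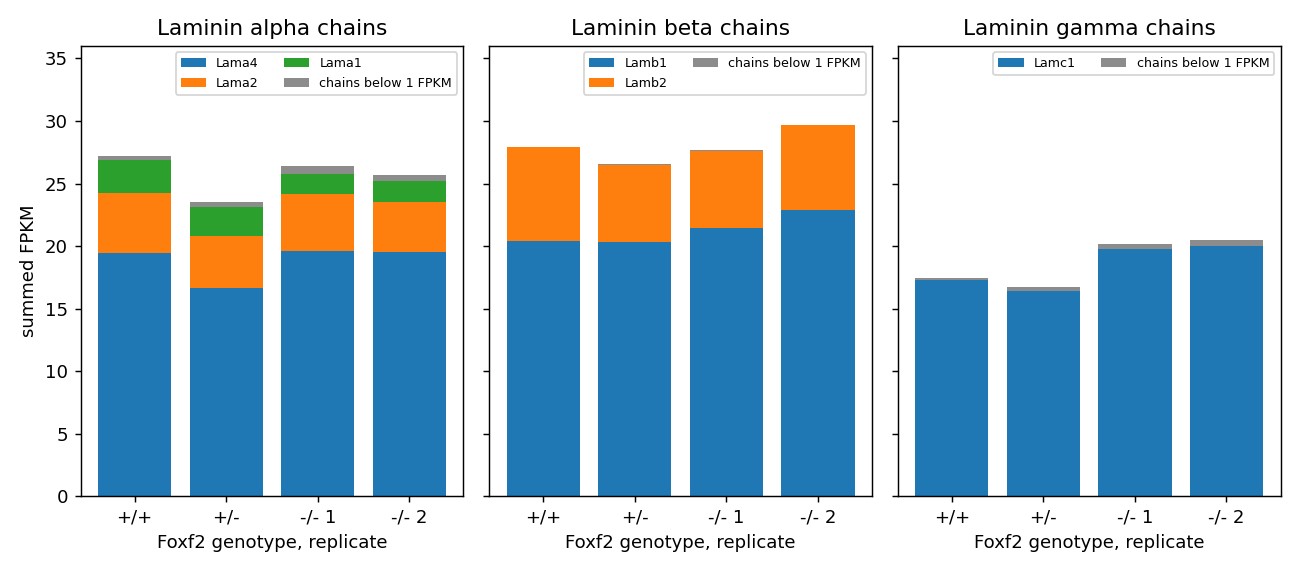
Summed FPKM of the laminin α, β and γ chains in each embryo, stacked by gene from 0, with chains below 1 FPKM summed in grey. *Lama4*, *Lamb1* and *Lamc1* make up most of each bar, and the γ chain bars of the mutants, at 20.2 and 20.5 FPKM, stand above those of the controls, at 17.5 and 16.7.

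Of the 8 tested members whose groups did not overlap, *Lama4*, *Lamb1* and *Lamc1* were higher and *Itga11*, *Itgb3*, *Itgb8*, *Itgav* and *Lama1* lower in the mutants. Over all genes, 9.89% had both mutants above both controls and 35.8% had both below. With libraries rescaled by median ratios these shares were 21% and 21.6%, and 6 members were higher and 4 lower: *Itga5*, *Itga9* and *Itgb1* joined the former, and *Itgav* left the latter.

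The 20 members below the level for testing included the integrin subunits of leukocytes and platelets and chains of epithelial laminin. *Itgad* was listed at 0 in all embryos, *Itgb6*, an epithelial partner of *Itgav*, was at 0.0220 FPKM or less, and 13 members had a mean of 0.1 to 1 FPKM. The leukocyte β subunit *Itgb2* was at 0.107 FPKM or less, and the 5 leukocyte α subunits summed to 0.530 and 0.379 FPKM in the controls, against 0.589 and 0.553 in the mutants. The groups did not overlap for 7 of the 20, against 31.4% of all genes below that level and above 0 in some embryo. Among them, *Itga2* and *Itga2b* were lower and *Itga3* and *Lama5* higher in the mutants. *Itga2* and *Itga2b* differed by more than 1.5-fold from both controls, but only just from *Foxf2*+/-. Their log2 differences from that embryo were -0.595 and -0.614, where 1.5-fold is 0.585. The share of all genes below that level that did so is not given, so this is not read as a result about the members. All members under 1 FPKM that are named were singled out after their values were seen. In a limma fit of all 21352 genes without the filter, 0 of the 37 members were called, and 3 of them (*Lama1*, *Lama5* and *Lamc1*) had an unadjusted p under 0.05. Of all genes in that fit, 0 were called and 9.21% had such a p.

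*Itga2b*, the platelet integrin subunit, was at 0.167 and 0.106 FPKM in the controls, against 0.0599 and 0.0133 in the mutants. The last value rested on 70.9 aligned bases, the coverage multiplied by the transcript length, and the first on 779. The 7 platelet and megakaryocyte markers summed to 5.204 and 6.90 FPKM in the controls, against 1.77 and 4.11 in the mutants. The lower sum came from *Pf4*, at 4.28 and 5.69 FPKM in the controls, against 0.684 and 2.86 in the mutants, whereas *Ppbp* was higher in both mutants, at 0.208 and 0.245 against 0.0356 and 0.0592, and the groups overlapped for *Gp1bb*. The part of these cells in the *Itga2b* value was not tested.

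The chains of epithelial laminin were low in all embryos. *Lamb3* had levels of 0.0117 and 0.0410 FPKM in the controls, against 0.0693 and 0.0720 in the mutants. *Lama3* was at 0.0837 and 0.186 in the controls, against 0.296 and 0.168 in the mutants, and its groups overlapped. *Itgb4*, which forms the epithelial hemidesmosome receptor with *Itga6*, was at 0.287 and 0.187 in the controls, against 0.256 and 0.216 in the mutants. The 9 epithelial markers summed to 7.72 and 8.44 FPKM in the controls, against 8.83 and 9.92 in the mutants. Of them, 5 reached 1 FPKM in some embryo and none was at 0 in all. The groups overlapped for all 4 that were tested, with a median log2 difference of -0.02. *Cdh1*, *Krt15*, *Trp63* and *Esrp1*, below the level for testing, were higher in both mutants, while the groups overlapped for *Krt5*, also below that level. The part of epithelial cells in the laminin values was not tested.

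**Figure D5:**
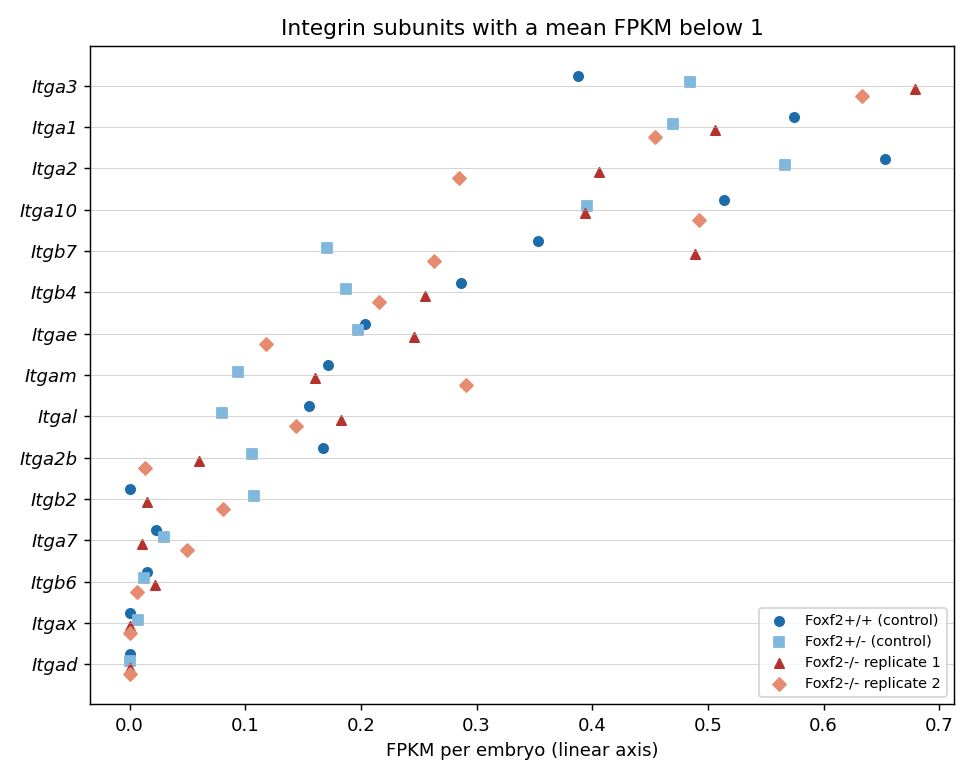
FPKM of the 15 integrin subunits with a mean below 1, in each of the 4 embryos, on a linear axis. All values lie at or below 0.679, with the mutants to the left of both controls for *Itga2* and *Itga2b* and to the right for *Itga3*.

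The ligands and partners of these receptors were examined as 5 lists with 96 genes in the files, of which 76 were tested. limma called 0 of them, 8 had an unadjusted p under 0.05 (13% of all genes tested), and 1 differed by more than 1.5-fold from both controls (1.4% of all genes). The groups did not overlap for 28 of the 76, where 45.7% of all genes did not (9.89% with the mutants above and 35.8% below), and the median log2 difference was -0.01, against -0.08 over all genes. Of 14 tested integrin ligands outside the laminins, both mutants were above both controls for 4 and below for 2. *Postn*, the most abundant, was at 602 and 474 FPKM in the controls, against 555 and 534 in the mutants. *Fn1*, the ligand of the *Itga5* receptor, was at 108 and 97.4 in the controls, against 103 and 102 in the mutants. *Tnc*, encoding the tenascin-C bound by the *Itga9* receptor, was at 63.8 and 44.3 FPKM in the controls, against 35.4 and 31.7 in the mutants, a log2 difference of -0.67 (adjusted p = 0.241, limma). *Thbs1*, encoding the matrix protein thrombospondin 1, was at 7.70 and 8.22 in the controls, against 11.5 and 11.0 in the mutants (log2 difference 0.49, adjusted p = 0.177, limma). *Fn1*, *Tnc*, *Thbs1* and *Cd47* were named after their values were seen.

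Of the 13 tested basement membrane partners of laminin, 4 had both mutants above and 1 both below the controls. *Nid1*, the nidogen that links laminin and type IV collagen, was at 60.6 and 49.1 FPKM in the controls, against 46.2 and 50.6 in the mutants. *Smoc2*, a secreted matrix protein of basement membranes, was at 3.67 and 5.71 in the controls, against 9.65 and 13.4 in the mutants, the gene past 1.5-fold against both controls (log2 difference 1.29, standard error 0.23, adjusted p = 0.130, limma). It was called by limma only when the *Foxf2*+/- embryo was left out, a fit with 1 control embryo that is not read as a result. Of 9 other tested laminin receptors, none had both mutants above and 3 had both below the controls, and *Rpsa* was the highest, at 206 and 180 FPKM in the controls, against 176 and 196 in the mutants. Of 30 tested intracellular partners, 8 had both mutants above and 3 both below, among them *Flna*, encoding the actin crosslinker filamin A, at 53.8 and 52.5 FPKM in the controls, against 55.4 and 57.2 in the mutants. Of 10 lateral partners at the membrane, 1 had both mutants above and 2 both below. *Cd81*, a tetraspanin, was at 211 and 189 FPKM in the controls, against 177 and 200 in the mutants. *Cd47*, the integrin-associated protein and a receptor of thrombospondin 1, was at 22.0 and 17.9 in the controls, against 30.7 and 26.4 in the mutants (log2 difference 0.52, adjusted p = 0.241, limma).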

How the data were processed

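Single-end reads were aligned by the authors to mm9 with Tophat and Bowtie (0.12.7 in the submitters' processing notes), and the deposited tables give an FPKM and a coverage, the mean read depth not scaled for library size, for each of 28107 RefSeq entries in the form Cufflinks writes, 1 table per embryo. The version and options of that program are not given in the sources used here. The tables hold no read numbers, so the study's test on read numbers could not be run, and no counting interval is given. Here, 10 symbols with a failed estimate and entries under 200 bases were left out, the rest was summed by symbol, and genes with a mean FPKM of at least 1 were tested as log2(FPKM + 0.1), a scale that understates the change of low genes. The length minimum and the filter on the mean over all 4 embryos were choices made here. limma 3.58.1 in R 4.3.3 with a variance trend compared 2 *Foxf2*-/- with 2 control embryos, with Benjamini-Hochberg adjustment over all 11154 genes, and was tested on simulated data. Sums, counts and plots were made in Python 3.11.15 (pandas 2.3.3, numpy 2.4.6, matplotlib 3.10.9). Exons of *Itgb5* came from GENCODE on the same build. Members are named where they reach 1 FPKM in any embryo, the others by range and count, with some chosen after their values were seen. Of the lists, named are genes called by limma, those past 1.5-fold against both controls and the highest of each list. Some marker genes were named after their values were seen. In all, 17 alternatives were run. Members and lists were chosen with earlier results of these data known. Some genes of the lists are not reported here.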

Additional observations from a re-analysis of the deposited data

How the results depend on the processing

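No member was called by limma under any of the 17 alternatives, and the lowest adjusted p of a member in any of them was 0.214. Over all genes, limma called 0 with no filter on low values and 0 without a variance trend. In those fits, 0 members called therefore says nothing about the members. Over all genes it called 1 when the highest entry of each symbol was used and 27 with entries of every length, against 7 in the main fit. A log2 difference was recomputed in 14 or 15 alternatives per member, since thresholds on the fold leave it as it is and the stricter filter drops the lower members, and 9 of the 17 kept their sign in those that gave a value, *Lama1* (-0.66 to -0.37) and *Lamc1* (0.20 to 0.32) among them. It turned for 3 members when libraries were rescaled, to 0.0300 for *Itgav*, 0.0452 for *Itgb1* and 0.0169 for *Lama2* by median ratios, and to 0.0225, 0.0376 and 0.0095 by the upper quartile. *Itgb5* was at -0.0467 when its highest entry alone was used and at -0.10 with the number of *Foxf2* null alleles as a linear term. With each embryo left out in turn, differences ran from -0.17 to 0.26 for *Itga6*, -0.45 to 0.10 for *Itga8*, -0.0823 to 0.0123 for *Itgb1*, -0.156 to 0.0324 for *Lama2*, -0.223 to 0.0583 for *Lamb2*, -0.0017 to 0.0865 for *Itga5* and -0.15 to 0.20 for *Itgb5*. The lone embryo of a group was then assumed to vary like those of the other group. Members past 1.5-fold against both controls numbered 2 with no filter on low values and 0 to 3 with an embryo left out, the 3 (*Itga11*, *Itga4* and *Lama1*) without the *Foxf2*+/- embryo. At a lower threshold on the fold 1 member passed, *Lama1*. Members whose groups did not overlap numbered 15 of all 37 with no filter, 4 when genes had to reach an FPKM of 5 in some embryo, and 11 to 15 with an embryo left out, where fewer samples make separation more frequent (13 without the *Foxf2*+/+ and 15 without the *Foxf2*+/- embryo). Of the list genes limma called *Smoc2* alone, and only without the *Foxf2*+/- embryo. That fit has 1 control embryo, so the call is not read as a result. For the counts past a fold threshold or without overlap, no share over all genes in the same setting is given here. These counts are therefore not read as results about the members. The cause of the changes in sign was not tested.

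No paired analysis was possible because the labels give replicate numbers to the *Foxf2*-/- embryos only. Each control genotype is 1 embryo, so the effect of 1 null allele cannot be told apart from the difference between 2 embryos. Nothing in the labels marks a batch. With 2 embryos in each group, intervals of 6 of the 17 members reach 1.5-fold, and for these a change of that size was not excluded by the data. Members under 1 FPKM rest on few aligned bases, and the read numbers behind them are unknown.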
